A study of Homo sapiens with 60 samples.

Results

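Aconiti Lateralis Radix Preparata is the processed side root of aconite, used in East Asian herbal medicine. Its water extract was given to HT29 cells, an established line from a human colorectal adenocarcinoma, for 24 h. The comparison described here sets the 3 libraries of the Medium dose (100 µg/mL) against the 3 libraries of the Low dose (20 µg/mL), a 5-fold step in dose, over all genes. The 6 libraries were chosen by their labels alone, out of 60 in the series. The side groups used below are the same extract at the High dose (500 µg/mL), the water extract of Bupleuri Radix (thorowax root) at its Medium dose (100 µg/mL) and Low dose (20 µg/mL), and the Vehicle(DMSO) cells, each with 3 libraries and also sampled at 24 h. The sample labels give 0.1% DMSO for the vehicle, while the design text gives 2%, and no label says how much DMSO the extract groups carried. The design text also describes a lower top dose for extracts with stronger effects on the cells, but the labels give 500 µg/mL here. HT29 is 1 cancer line with no stroma or immune cells, and an extract is a mixture, so no single compound stands behind a value. Nothing in the labels says that the libraries of a group came from separate cultures, so the p-values below measure the spread between libraries. Unless another fit is named, edgeR's p-values rest on the spread within groups over 57 libraries fitted together, not on the 6 alone. The ± values, called SE below, are not given by edgeR. They were derived from the same test, as the absolute log2 fold change over the square root of its F.

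Many of the genes described below belong to 2 responses to foreign chemicals. The aryl hydrocarbon receptor is a ligand-activated transcription factor that pairs with ARNT on DNA holding the core GCGTG, and it is known for the induction of CYP1A1, CYP1B1 and other xenobiotic-metabolising enzymes. In the gut it is known to respond to plant and microbial compounds such as indoles. NRF2 is held low by KEAP1, is freed by electrophiles and oxidants, and acts through antioxidant response elements with the core TGACNNNGC on genes of glutathione, thioredoxin and quinone metabolism.

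The 6 libraries held 21.45 to 29.88 M (mega) counts each, within the 10.35 to 40.05 M of the 57 libraries fitted together. Values below are in CPM, a gene's count per M counts of its library, which are relative to the whole library and are not corrected for gene length. The library totals were scaled between libraries (by TMM), except for the cell type markers of this paragraph, which use unscaled totals. All 12 of 12 colon epithelial markers averaged at least 1 CPM, with summed levels of 11700 to 12800 CPM at the Medium dose and 11900 to 13300 CPM at the Low dose. Of the 8 fibroblast markers, COL1A1 and LUM averaged at least 1 CPM, and COL1A2, DCN and PDGFRA were at 0 in all 6 libraries. The fibroblast list summed to 2.41 to 2.73 CPM at the Medium dose and 2.09 to 2.44 CPM at the Low dose. The leukocyte list summed to 12.2 to 14 CPM at the Medium dose and 13.6 to 14.2 CPM at the Low dose. In it CD14, CD68 and ITGAM averaged at least 1 CPM, and MS4A1 was at 0. The endothelial, hepatocyte and keratinocyte lists each summed to at most 4.33 CPM at the Medium dose and 3.82 CPM at the Low dose. Of these lists, only the endothelial one had markers averaging at least 1 CPM, PECAM1 and TEK. No marker of any list (0) was called, against 0.801% of all genes tested. None of the 6 libraries was among the 4 that stood apart from their groups in earlier results of these data. Those 4 were aconite High dose library 2, vehicle library 1, bupleurum Medium dose library 2 and 1 library of another formula. Counts differed more among the Low dose libraries, with a chi-square per degree of freedom of 8.12 to 20.5 between pairs. At the Medium dose it was 3.47 to 4.25. The root mean square deviation from the group mean in log2 CPM was closer, at 0.22 to 0.246 for the Low dose and 0.217 to 0.228 for the Medium dose. In such bulk data, fewer cells of a type and less RNA per cell cannot be told apart.

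Raising the extract from the Low to the Medium dose changed few genes, and most of them modestly. Of 16484 genes tested, 132 (0.801%) passed a Benjamini-Hochberg adjusted p of 0.05 in edgeR's quasi-likelihood test, 75 (0.455%) higher and 57 (0.346%) lower at the Medium dose. The 75 rises had a median log2 fold change of 0.52 and reached from 0.19 to 4.56. The 57 falls had a median of -0.39 and reached from -0.20 to -1.27. The median over all genes tested was -0.002. A doubling or more was seen for 14 of the rises, and a halving or more for 2 of the falls, PON1 (a lactonase) and IVL (involucrin), which averaged 0.504 and 0.352 CPM at the Medium dose and 1.08 and 0.877 CPM at the Low dose. Without any 1 of the 6 libraries these 2 calls were lost, at adjusted p of 0.0777 to 0.26 for PON1 and 0.0886 to 0.347 for IVL, and IVL also at 0.0504 to 0.0542 without bupleurum Medium dose library 1 or 3, any bupleurum Low dose library or aconite High dose library 1. The 3 Medium dose values lay beyond all 3 Low dose values for each of the 132 genes, as they did for 13.7% of all genes tested (6.49% above and 7.16% below). At an unadjusted p under 0.05 there were 915 genes, and DESeq2 called 141. The count was 83 without Medium dose library 2, 75 without Low dose library 2 and 77 without Low dose library 3. The rises numbered 47 and 49 without Low dose library 2 or 3, and the falls 29 and 33 without Medium dose library 2 or 3 and 28 without either Low dose library 2 or 3. Among the 132, 43 genes (35 rises and 8 falls) were called under each of the 29 other settings tried.

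**Figure D1:**
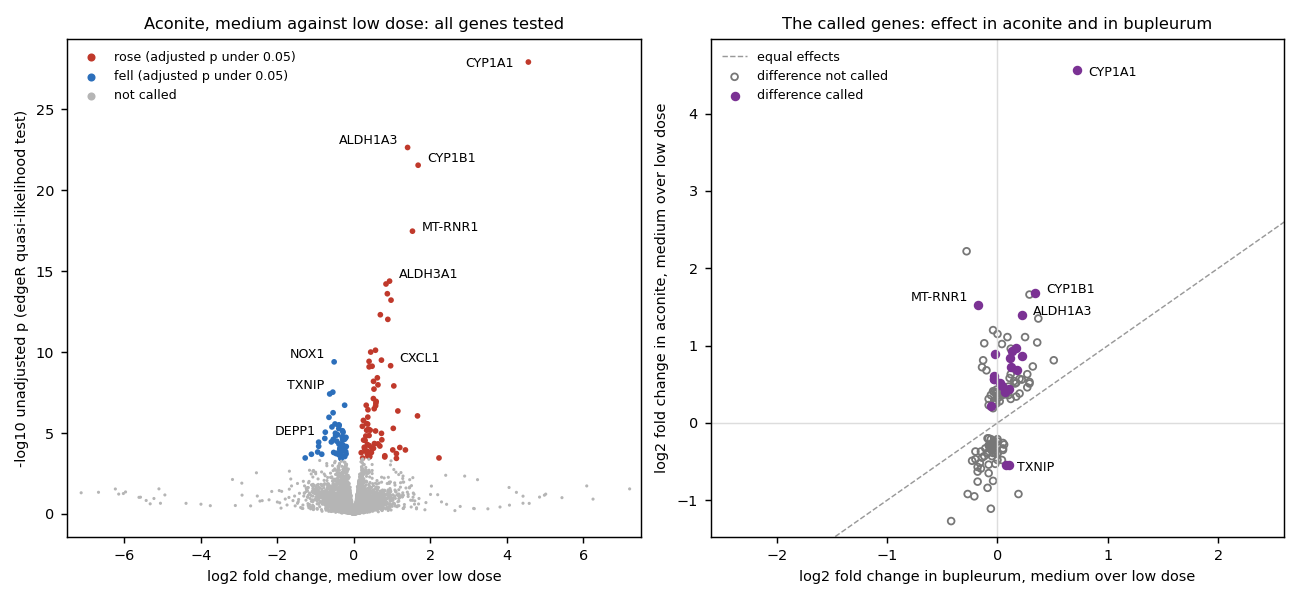
Left, log2 fold change of the aconite extract, Medium over Low dose, against the negative log10 of the unadjusted p for 16484 genes, with the 75 rises and 57 falls coloured and some genes named; CYP1A1 stands alone at 4.56. Right, the same 132 genes with the aconite effect plotted against the effect of the same dose step of the bupleurum extract; the 22 genes whose difference was called are in purple.

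The largest rise, CYP1A1, and several of the next largest were known targets of the aryl hydrocarbon receptor. Of the 10 members of that list, 8 passed the filter on low counts, and of these 6 (75%) rose and none (0) fell, against 0.801% called over all genes, and the list's median log2 fold change was 0.81. CYP1A1 (ENSG00000140465, chr15:74719542-74725610, minus strand, GRCh38), which oxidises polycyclic aromatic compounds, had 88.0, 93.5 and 97.6 CPM at the Medium dose and 6.04, 2.26 and 3.42 CPM at the Low dose. The groups lay far apart, and Low dose library 1 was the highest of its group. The fold was 23.6, with a log2 fold change of 4.56 ± 0.17 (SE of the fit to 57 libraries, n = 3 each, edgeR adjusted p = 1.96e-24). With the 6 compared libraries alone the edgeR adjusted p was 1.45e-09. The log2 fold change was 5.06 without Low dose library 1. Over the whole dose series CYP1A1 had 0.113, 0.406 and 0.363 CPM in vehicle cells, the values above at the Low and Medium doses, and 95.1, 105 and 104 CPM at the High dose. The High dose thus stood at about the Medium dose level for this gene, while the Low dose lay between vehicle and Medium dose.

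CYP1B1 (ENSG00000138061, chr2:38066973-38109902, minus strand), a related monooxygenase of steroids and aromatic compounds, had 386, 415 and 397 CPM at the Medium dose and 160, 104 and 109 CPM at the Low dose. Its log2 fold change was 1.68 ± 0.09 (edgeR adjusted p = 1.56e-18). Low dose library 1 was again the highest of its group, below every Medium dose library. CYP1B1-AS1, which runs antisense to CYP1B1, rose by 1.04, and since the strand setting of the counting is not given in the sources used here, its reads cannot be told apart from those of CYP1B1 with certainty. ALDH1A3 (ENSG00000184254, chr15:100877714-100916626, plus strand), a retinaldehyde dehydrogenase, had 104, 102 and 104 CPM at the Medium dose and 44.8, 34.0 and 38.1 CPM at the Low dose, a log2 fold change of 1.4 ± 0.07 (edgeR adjusted p = 1.87e-19). Both genes were lower at the High than at the Medium dose. CYP1B1 had 359, 308 and 370 CPM and ALDH1A3 71.3, 81.2 and 76 CPM at the High dose.

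ALDH3A1, an aldehyde dehydrogenase long used as a marker of this receptor, had 53.5, 54.5 and 55.4 CPM at the Medium dose and 27.6, 28.1 and 30.1 CPM at the Low dose. Its log2 fold change was 0.93 ± 0.08 (edgeR adjusted p = 1.36e-11), and it was higher again at the High dose, with 76.5, 83.8 and 76.6 CPM. TIPARP, a mono-ADP-ribosyltransferase that feeds back on the receptor, had 176, 182 and 183 CPM at the Medium dose and 125, 99.7 and 110 CPM at the Low dose, a log2 fold change of 0.69 ± 0.07 (edgeR adjusted p = 8.98e-10). In both genes every Medium dose library lay above every Low dose library. UGT1A6, which conjugates phenols to glucuronic acid, had 76.2, 67.8 and 71.1 CPM at the Medium dose and 51.6, 46.0 and 51.1 CPM at the Low dose, with a log2 fold change of 0.53 ± 0.09 (edgeR adjusted p = 1.62e-04). UGT1A1, the bilirubin glucuronosyltransferase of the same locus, rose by 0.52 ± 0.08 (edgeR adjusted p = 1.38e-05). The UGT1A genes share their last exons, so the counting may have split reads between them. AHRR, the repressor of the receptor, had 5.37, 6.07 and 6.01 CPM at the Medium dose and 5.40, 5.42 and 5.27 CPM at the Low dose. These values overlapped, and the log2 fold change of 0.12 ± 0.14 was not called. NQO1, a quinone reductase that both receptor and NRF2 are known to drive, had 646, 668 and 652 CPM at the Medium dose and 536, 499 and 554 CPM at the Low dose, with no overlap. Its log2 fold change of 0.31 ± 0.09 did not pass (edgeR adjusted p = 0.169). It was called in 7 of the 29 other settings, among them the fit to the 6 compared libraries alone (0.00878), while the fit to the 18 libraries of the 2 extracts gave 0.965.

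**Figure D2:**
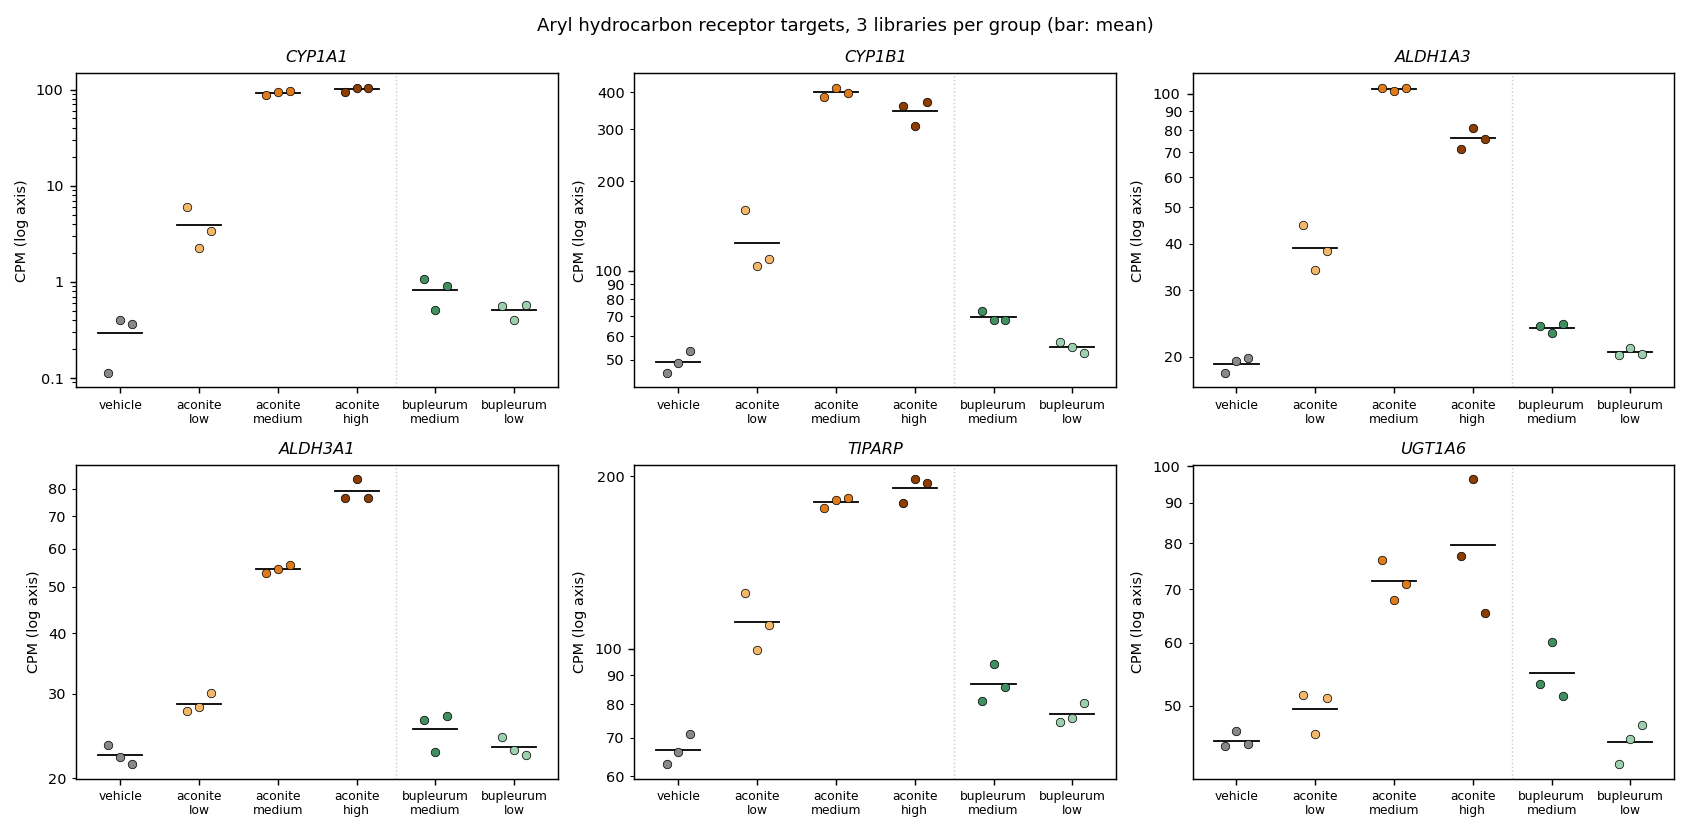
CPM on a log axis of 6 aryl hydrocarbon receptor genes in each library, for vehicle and the Low, Medium and High doses of the aconite extract and for the Medium and Low doses of the bupleurum extract; points are libraries and bars are means of 3. CYP1A1 averages 93.0 CPM at the aconite Medium dose and 3.90 CPM at the Low dose.

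Promoter sequences of 3 of these genes are shown because the receptor's core can be read in them. They come from RefSeq on GRCh38.p14, run 5′ to 3′ on the gene's strand from 250 bases before to 50 bases after the start, and capitals mark GCGTG or, on the other strand, CACGC. The CYP1A1 window is chr15:74725479-74725778 (minus strand) with a core at -57. The ALDH1A3 window is chr15:100879581-100879880 (plus strand) with cores at -197 and -43. The TIPARP window is chr3:156674340-156674639 (plus strand, first of 3 entries) with cores at -208 and -142.
CYP1A1: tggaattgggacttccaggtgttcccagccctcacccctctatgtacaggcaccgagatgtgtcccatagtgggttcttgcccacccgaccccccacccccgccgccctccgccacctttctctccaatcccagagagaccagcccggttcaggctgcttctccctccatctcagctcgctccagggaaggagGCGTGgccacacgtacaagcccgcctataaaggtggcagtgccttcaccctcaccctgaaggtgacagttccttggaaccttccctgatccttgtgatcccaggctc
ALDH1A3: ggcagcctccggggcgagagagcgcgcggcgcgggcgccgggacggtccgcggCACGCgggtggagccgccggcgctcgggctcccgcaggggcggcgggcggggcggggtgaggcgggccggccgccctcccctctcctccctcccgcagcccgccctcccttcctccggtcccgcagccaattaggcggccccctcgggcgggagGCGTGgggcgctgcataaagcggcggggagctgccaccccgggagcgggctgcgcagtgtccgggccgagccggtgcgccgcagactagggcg
TIPARP: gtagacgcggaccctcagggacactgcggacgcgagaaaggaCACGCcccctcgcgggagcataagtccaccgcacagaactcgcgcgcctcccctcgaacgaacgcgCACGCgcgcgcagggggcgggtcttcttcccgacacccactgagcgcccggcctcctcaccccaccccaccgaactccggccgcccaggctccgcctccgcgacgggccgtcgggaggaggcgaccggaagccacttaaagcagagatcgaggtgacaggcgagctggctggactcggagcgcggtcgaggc
The core is short and common. It was found on either strand in 12832 of 35116 such promoters (36.5%), in 6348 of the 11165 tested genes that could be matched (56.9%), in 31 of 53 matched rises (58.5%) and in 26 of 44 matched falls (59.1%). A match describes the letters in the window and is not a measured binding site.

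Several genes outside that list rose by a like amount. SLC22A3, an organic cation transporter, had 17.3, 16.4 and 16.7 CPM at the Medium dose and 9.62, 7.97 and 8.05 CPM at the Low dose, a log2 fold change of 0.97 ± 0.09 (edgeR adjusted p = 1.27e-10). ADGRF1, an adhesion G protein-coupled receptor, had 86.4, 84.5 and 83.4 CPM at the Medium dose and 52.1, 42.9 and 43.7 CPM at the Low dose, with a log2 fold change of 0.87 ± 0.08 (edgeR adjusted p = 5.82e-11). PIM1, a serine/threonine kinase, had 26.6, 26.2 and 27.8 CPM at the Medium dose and 16.4, 14.9 and 13.6 CPM at the Low dose, a log2 fold change of 0.84 ± 0.07 (edgeR adjusted p = 1.70e-11). For each of these genes the Medium dose values were closely grouped and well above the Low dose ones. SLC22A2, the neighbour of SLC22A3 on chromosome 6, rose by 2.22 (edgeR adjusted p = 0.0447) at 0.436 CPM at the Medium dose and 0.0873 CPM at the Low dose, so it rests on few counts. Its call was lost without Medium dose library 1 (0.199) or 2 (0.369) or any of Low dose libraries 1 (0.135), 2 (0.167) and 3 (0.269), and at 0.0508 to 0.0546 without bupleurum Medium dose library 1 or 3, any bupleurum Low dose library or vehicle library 2.

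Further rises came mostly from genes at low levels, and were of about 2-fold for LRRN4 and POU2F3. LRRN4, a leucine-rich repeat protein, had 5.37, 4.28 and 4.74 CPM at the Medium dose and 2.31, 2.47 and 1.62 CPM at the Low dose (log2 fold change 1.15 ± 0.19, edgeR adjusted p = 2.10e-04). POU2F3, the transcription factor that defines tuft cells, had 2.76, 3.20 and 3.81 CPM at the Medium dose and 1.63, 1.78 and 1.34 CPM at the Low dose (log2 fold change 1.03 ± 0.20, edgeR adjusted p = 0.00176). The groups did not overlap for either gene, and the High dose was lower than the Medium dose for LRRN4, with 3.26, 1.17 and 3.28 CPM. FGD2, an exchange factor for CDC42, rose by 1.66 at 1.15 CPM at the Medium dose and 0.350 CPM at the Low dose. PRDM1, the repressor known as BLIMP1, had 2.42, 2.97 and 3.43 CPM at the Medium dose and 2.17, 1.82 and 0.971 CPM at the Low dose. Its log2 fold change of 0.81 ± 0.20 (edgeR adjusted p = 0.0353) lost its call without Medium dose library 2 (0.146) or 3 (0.329) and without Low dose library 2 (0.0983) or 3 (0.499), all given as adjusted p. HTR1D, a serotonin receptor, had 15.2, 14.4 and 14.7 CPM at the Medium dose and 10.7, 9.35 and 8.83 CPM at the Low dose (log2 fold change 0.61 ± 0.08, edgeR adjusted p = 3.36e-06).

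NRF2 targets rose by smaller amounts. Of 23 listed genes tested, 10 (43.5%) rose and none (0) fell, against 0.801% called over all genes, all 23 log2 fold changes were above 0, and their median was 0.32. The count of rises ran from 7 to 18 over the other settings. TXNRD1, the cytosolic thioredoxin reductase, had 556, 536 and 548 CPM at the Medium dose and 409, 380 and 420 CPM at the Low dose (log2 fold change 0.44 ± 0.05, edgeR adjusted p = 1.37e-07). AKR1B10, an aldo-keto reductase of retinal and aldehydes, had 168, 169 and 178 CPM at the Medium dose and 103, 102 and 108 CPM at the Low dose (log2 fold change 0.72 ± 0.09, edgeR adjusted p = 3.97e-07). The 2 groups were tight and separate for both, and AKR1B10 was higher still at the High dose, with 217, 277 and 216 CPM. TXNRD1 was little higher there, with 575, 568 and 583 CPM.

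Genes of glutathione metabolism were among the 10. SLC7A11, the cystine importer, had 212, 230 and 214 CPM at the Medium dose and 152, 139 and 134 CPM at the Low dose (log2 fold change 0.63 ± 0.09, edgeR adjusted p = 8.26e-06). GCLC, the catalytic subunit of the first enzyme of glutathione synthesis, had 107, 106 and 105 CPM at the Medium dose and 81.7, 77.3 and 82.3 CPM at the Low dose (log2 fold change 0.40 ± 0.05, edgeR adjusted p = 4.39e-07). GCLM, its modifier subunit, rose by 0.38 ± 0.07 (edgeR adjusted p = 0.00192; 0.06 without Low dose library 2), and GSR, which regenerates reduced glutathione, by 0.25 ± 0.04 (edgeR adjusted p = 7.00e-04). In each of these genes the Medium dose libraries all lay above the Low dose ones. SRXN1, which repairs oxidised peroxiredoxins, rose by 0.32 and OSGIN1, an oxidative stress-induced growth inhibitor, by 0.57. AKR1C2, a hydroxysteroid dehydrogenase, rose by 0.54 (edgeR adjusted p = 0.00946) and lost its call without Medium dose library 3 (0.0524) or Low dose library 1 (0.102) or 2 (0.143). AKR1C1 at 0.48 (edgeR adjusted p = 0.0946) and AKR1C3 at 0.48 (0.172) did not pass, but with the 6 compared libraries alone both were called (0.00516 for AKR1C1 and 0.00242 for AKR1C3), and reads of these near-identical genes may have been split by the counting.

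HMOX1, haem oxygenase 1, stood at the edge of the test. It had 10.7, 11.1 and 11.5 CPM at the Medium dose and 8.98, 8.98 and 7.86 CPM at the Low dose, with a log2 fold change of 0.36 ± 0.09 (edgeR adjusted p = 0.0356). The groups did not overlap, but the call was lost without any 1 of the 6 libraries, at adjusted p from 0.0692 without Medium dose library 1 to 0.335 without Low dose library 3. At the High dose it had 17.8, 23.1 and 19 CPM. FTL and FTH1, the ferritin chains, were at 0.32 and 0.26 and were not called. Outside the list, TRIM16L and its parent TRIM16 rose by 0.58 and 0.33, and their near-identical sequence leaves the split between them uncertain.

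The NRF2 core is shown in the promoters of TXNRD1 and GCLM, likewise from RefSeq on GRCh38.p14, with capitals on TGACNNNGC or, on the other strand, GCNNNGTCA. The TXNRD1 window is chr12:104286782-104287081 (plus strand, second of 2 entries) with a core at -102. The GCLM window is chr1:93909381-93909680 (minus strand) with a core at -34.
TXNRD1: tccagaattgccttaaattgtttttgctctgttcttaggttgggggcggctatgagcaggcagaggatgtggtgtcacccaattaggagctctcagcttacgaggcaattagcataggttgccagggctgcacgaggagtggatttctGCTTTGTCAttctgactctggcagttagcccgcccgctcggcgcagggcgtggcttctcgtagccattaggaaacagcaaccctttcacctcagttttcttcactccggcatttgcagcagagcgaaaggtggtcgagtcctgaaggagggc
GCLM: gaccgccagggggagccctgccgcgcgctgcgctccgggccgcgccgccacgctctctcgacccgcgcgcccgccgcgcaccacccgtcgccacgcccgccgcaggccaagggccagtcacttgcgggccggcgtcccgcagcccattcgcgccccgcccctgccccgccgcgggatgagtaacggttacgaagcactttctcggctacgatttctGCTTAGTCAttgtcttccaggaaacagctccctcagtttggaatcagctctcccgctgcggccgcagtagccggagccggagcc
In all, 4687 of 35116 promoters (13.3%) held this core, as did 19.3% of the tested genes matched, 8 of 53 matched rises (15.1%) and 7 of 44 matched falls (15.9%).

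Neutrophil-attracting chemokines rose in part. Of 19 listed chemokine and cytokine genes, 15 were tested, and of these 2 (13.3%) rose and none (0) fell, against 0.455% called higher over all genes, with a list median of 0.41. CXCL1 (ENSG00000163739, chr4:73869393-73871242, plus strand), a ligand of CXCR2, had 13.8, 12.3 and 13.9 CPM at the Medium dose and 6.57, 6.98 and 7.03 CPM at the Low dose, a log2 fold change of 0.96 ± 0.12 (edgeR adjusted p = 7.17e-07). The groups were clearly separate, and the dose series climbed from 2.03, 1.5 and 1.54 CPM in vehicle cells through these values to 22.9, 35.6 and 24.6 CPM at the High dose. CXCL8, interleukin 8, had 17.5, 20.0 and 18.4 CPM at the Medium dose and 11, 10.7 and 12.1 CPM at the Low dose, a log2 fold change of 0.73 ± 0.16 (edgeR adjusted p = 0.00601). Its call was lost without Medium dose library 2 (0.0755) or Low dose library 2 (0.0699). CCL20, which attracts CCR6-bearing cells, had 2.28, 2.80 and 2.12 CPM at the Medium dose and 1.21, 1.35 and 1.67 CPM at the Low dose, a log2 fold change of 0.79 that was not called (edgeR adjusted p = 0.338). CXCL2 at 0.66 (0.509) and CXCL3 at 0.41 (0.89) did not pass, and reads of CXCL1, CXCL2 and CXCL3 may have been shared between these similar genes.

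Of the 14 NF-kB regulators tested, BIRC3, an inhibitor of apoptosis protein, was the 1 that rose, and none (0) fell, against 0.801% called over all genes. It had 10.4, 11.2 and 10.5 CPM at the Medium dose and 8.52, 6.33 and 6.8 CPM at the Low dose (log2 fold change 0.57 ± 0.11, edgeR adjusted p = 0.00224; 0.0666 without Low dose library 2 and 0.0766 with the 18 libraries of the 2 extracts). The median of that list was 0.07. PI3, the elastase inhibitor elafin, had 9.98, 11 and 9.86 CPM at the Medium dose and 6.78, 5.96 and 5.97 CPM at the Low dose (log2 fold change 0.72 ± 0.14, edgeR adjusted p = 0.00295). It was the 1 call among 13 epithelial defence genes (0.801% called over all genes). EREG, epiregulin, a ligand of the EGF receptor, had 152, 154 and 147 CPM at the Medium dose and 118, 94.2 and 94.3 CPM at the Low dose (log2 fold change 0.56 ± 0.07, edgeR adjusted p = 1.15e-07). Every Medium dose library was above every Low dose library for these 3 genes. AREG, amphiregulin, another ligand of that receptor, rose by 0.47 (edgeR adjusted p = 0.0145), with the call lost without Medium dose library 2 (0.187) or 3 (0.0554) or Low dose library 2 (0.167) or 3 (0.127). THBS1, the matrix glycoprotein thrombospondin 1, rose by 0.51 ± 0.08 (edgeR adjusted p = 4.71e-05), and NAMPT, the rate-limiting enzyme of NAD salvage, by 0.36 ± 0.06 (edgeR adjusted p = 4.62e-04).

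Smaller rises were seen in metabolic and surface genes. ST3GAL4, a sialyltransferase, had 136, 137 and 141 CPM at the Medium dose and 96.2, 98.9 and 104 CPM at the Low dose (log2 fold change 0.48 ± 0.06, edgeR adjusted p = 7.24e-07). ALDH3A2, the fatty aldehyde dehydrogenase, had 158, 173 and 165 CPM at the Medium dose and 128, 121 and 127 CPM at the Low dose (log2 fold change 0.40 ± 0.05, edgeR adjusted p = 7.47e-07). VIPR1, the receptor of vasoactive intestinal peptide, rose by 0.51 ± 0.07 (edgeR adjusted p = 5.26e-06). The groups did not overlap for any of them. SLC2A1, the glucose transporter GLUT1, rose by 0.22 ± 0.04 (edgeR adjusted p = 0.00138) and CEACAM6, a surface adhesion molecule, by 0.37 ± 0.06 (edgeR adjusted p = 1.82e-04). CABLES1, a cyclin-dependent kinase partner, rose by 0.25 (edgeR adjusted p = 0.00614; 0.0957 without Low dose library 3) with 96.2, 94.6 and 92.4 CPM at the Medium dose and 79.7, 82.2 and 75.6 CPM at the Low dose, while the High dose had 70.7, 64.0 and 76.6 CPM.

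Both mitochondrial ribosomal RNAs rose, and in the same fit no messenger RNA of that genome passed the test. MT-RNR1 (ENSG00000211459, chrM:648-1601, plus strand), the small ribosomal RNA, had 3430, 3470 and 3000 CPM at the Medium dose and 1180, 1210 and 1040 CPM at the Low dose, a log2 fold change of 1.53 ± 0.11 (edgeR adjusted p = 1.39e-14). MT-RNR2 (ENSG00000210082, chrM:1671-3229), the large one, had 18800, 18300 and 16800 CPM at the Medium dose and 10300, 10100 and 8710 CPM at the Low dose, a log2 fold change of 0.89 ± 0.09 (edgeR adjusted p = 1.56e-09). At the High dose MT-RNR1 had 32000, 32700 and 29400 CPM, while vehicle cells had 1420, 1260 and 1290 CPM, a little above the Low dose. Together the pair took 2.18, 2.16 and 1.96% of the counts at the Medium dose and 1.13, 1.14 and 0.982% at the Low dose. The exact two-sided permutation test gave p = 0.1 for this share, the smallest it can give with 3 libraries against 3. Of the 13 mitochondrial messenger RNAs, none (0) was called by edgeR (0.801% over all genes), 3 were under an unadjusted p of 0.05, and DESeq2 called 0. Their median was -0.20. MT-ND1, a subunit of complex I that lies next to the ribosomal genes, had 6320, 6740 and 5240 CPM at the Medium dose and 6060, 3350 and 2630 CPM at the Low dose, and the groups overlapped. The MT-ND1 log2 fold change of 0.60 (edgeR adjusted p = 0.428) became 1.03 and was called without Low dose library 1 (0.00965), and it was also called with a replicate block in the 6 libraries (0.0105) and with no filter on low counts (8.62e-13). That Low dose library held the most mitochondrial messenger RNA, with the 13 genes at 7.57, 7.29 and 6.76% of the counts at the Medium dose and 9.92, 7.22 and 6.43% at the Low dose. MT-CO3, a subunit of cytochrome c oxidase, had 11400, 11300 and 11500 CPM at the Medium dose and 16600, 13800 and 11500 CPM at the Low dose (log2 fold change -0.30, edgeR adjusted p = 0.787; 0.0173 with no filter on low counts). Libraries of messenger RNA hold ribosomal RNA as a by-product of the capture, whose part in the result was not tested. Nuclear copies of mitochondrial sequence can also share reads with these genes in the counting.

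**Figure D3:**
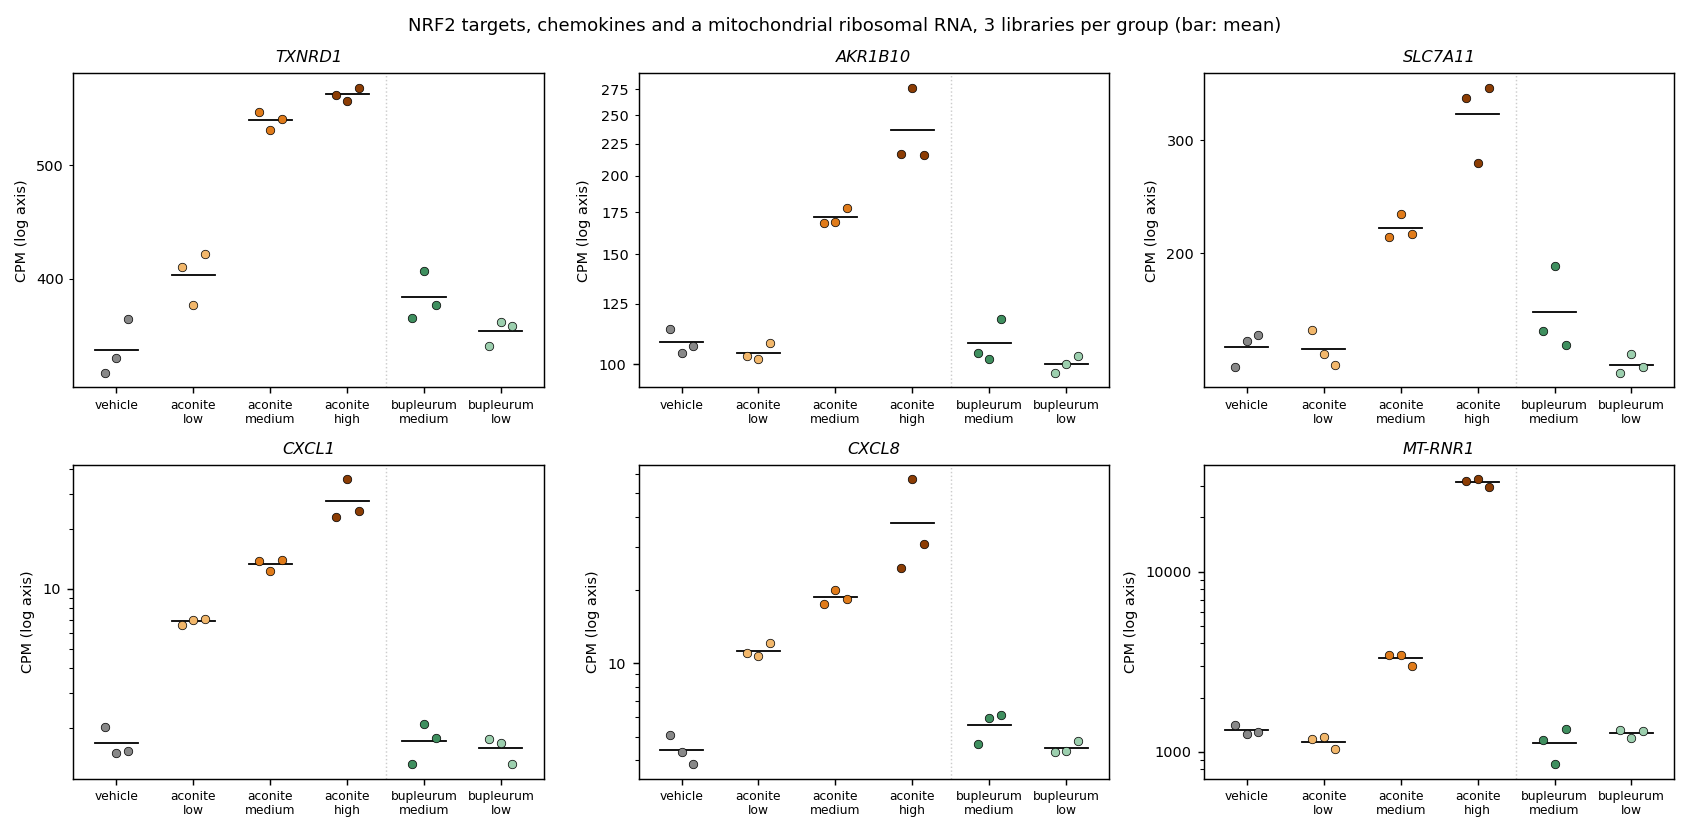
CPM on a log axis of TXNRD1, AKR1B10, SLC7A11, CXCL1, CXCL8 and MT-RNR1 in each library of vehicle, the Low, Medium and High doses of the aconite extract and the Medium and Low doses of the bupleurum extract; points are libraries and bars are means of 3. MT-RNR1 averages 3300 CPM at the aconite Medium dose and 1140 CPM at the Low dose.

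The 57 falls were small and spread over many functions. TXNIP (ENSG00000265972, chr1:145992435-145996600, minus strand), an inhibitor of thioredoxin and of glucose uptake, had 37.2, 35.4 and 37.5 CPM at the Medium dose and 51.5, 51.3 and 58.7 CPM at the Low dose. Its log2 fold change was -0.55 ± 0.08 (edgeR adjusted p = 2.04e-05), and the High dose was lower again, with 17.2, 29.5 and 20.7 CPM. Every library of the Medium dose was below every library of the Low dose. NOX1 (ENSG00000007952, chrX:100843324-100874345, minus strand), the colonic NADPH oxidase that makes superoxide, had 11.3, 12.1 and 13 CPM at the Medium dose and 17.2, 16.7 and 18.2 CPM at the Low dose. Its log2 fold change was -0.52 ± 0.06 (edgeR adjusted p = 4.40e-07), and the High dose had 7.40, 8.46 and 7.28 CPM. In both genes the Low dose was close to vehicle, which had 57, 55.9 and 61.0 CPM of TXNIP and 18, 19.3 and 17.5 CPM of NOX1.

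CD200, a surface glycoprotein that restrains myeloid cells, had 4.99, 4.89 and 4.74 CPM at the Medium dose and 8.52, 7.13 and 7.26 CPM at the Low dose (log2 fold change -0.65 ± 0.12, edgeR adjusted p = 4.64e-04). LINC00261, a long non-coding RNA of endodermal cells, had 9.88, 11.2 and 10.0 CPM at the Medium dose and 15.7, 17.8 and 14.8 CPM at the Low dose (log2 fold change -0.63 ± 0.10, edgeR adjusted p = 2.54e-05). RNF144B, a ubiquitin ligase, had 7.79, 9.04 and 8.72 CPM at the Medium dose and 11.2, 13.6 and 12.6 CPM at the Low dose (log2 fold change -0.54 ± 0.09, edgeR adjusted p = 2.63e-04). For all 3 every Medium dose library lay below every Low dose library, and the call held under each of the 29 other settings for CD200, LINC00261 and RNF144B. DEPP1, a FOXO-induced regulator of autophagy, had 1.76, 1.92 and 1.99 CPM at the Medium dose and 2.84, 3.56 and 3.24 CPM at the Low dose (log2 fold change -0.76 ± 0.16, edgeR adjusted p = 0.00532; 0.0927 without Low dose library 2). METTL7A, a methyltransferase-like protein of lipid droplets, had a log2 fold change of -0.75 (edgeR adjusted p = 0.00257; 0.0505 with the 6 compared libraries alone). TPPP3, a tubulin polymerisation protein, had one of -0.57 (edgeR adjusted p = 0.00147; 0.0525 with the 18 libraries of the 2 extracts).

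Among regulators of growth and signalling, FBXO32 (atrogin-1, a FOXO-driven ubiquitin ligase) had 12.4, 12.3 and 12.2 CPM at the Medium dose and 15.8, 16.9 and 15.6 CPM at the Low dose (log2 fold change -0.39 ± 0.07, edgeR adjusted p = 0.00121). It was the 1 fall among 15 FOXO and PI3K responsive genes tested, with no rise (0), against 0.346% called lower over all genes, and a list median of -0.06. BTG2, an antiproliferative p53 target, had 31.5, 35.1 and 35.3 CPM at the Medium dose and 45.9, 42.3 and 45.8 CPM at the Low dose (log2 fold change -0.39 ± 0.08, edgeR adjusted p = 0.00178). Of 18 p53 targets tested 2 (11.1%) fell and none (0) rose, against 0.346% called lower over all genes. The other p53 target that fell was SESN1, a stress-induced inhibitor of mTORC1, at -0.39 (edgeR adjusted p = 0.00985). SESN1 was not called without Medium dose library 1 (0.0727) or 2 (0.129) or Low dose library 3 (0.263). DEPTOR, an inhibitor of mTOR, had 3.99, 3.68 and 3.81 CPM at the Medium dose and 4.69, 6.11 and 6.52 CPM at the Low dose (log2 fold change -0.59 ± 0.13, edgeR adjusted p = 0.00772). Its adjusted p was 0.0825 without Medium dose library 2, 0.0932 without Low dose library 2 and 0.127 without Low dose library 3, and its High dose values of 5.02, 5.40 and 4.77 CPM lay above those of the Medium dose.

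Epithelial lineage genes gave a few falls as well. Of 16 Wnt targets and stem cell genes tested, 2 (12.5%) fell and none (0) rose, against 0.346% called lower over all genes, with a list median of -0.25. The count was 1 without Low dose library 2 and 4 without the 4 libraries that stood apart. PROM1, the stem cell surface protein CD133, had 106, 105 and 106 CPM at the Medium dose and 123, 129 and 137 CPM at the Low dose (log2 fold change -0.30 ± 0.06, edgeR adjusted p = 0.00221). EPHB3, an ephrin receptor that orders cells along the crypt, had 19.3, 18.1 and 19.3 CPM at the Medium dose and 24.0, 27.6 and 24.7 CPM at the Low dose (log2 fold change -0.43 ± 0.09, edgeR adjusted p = 0.00347; 0.0737 without Low dose library 2). LGR5, the crypt stem cell receptor, had 38.9, 39.2 and 38.1 CPM at the Medium dose and 37.9, 33.2 and 34.3 CPM at the Low dose, a log2 fold change of 0.14 that was not called. DLL4, a Notch ligand, was the 1 call among 18 goblet and secretory lineage genes (0.801% over all genes), at -0.53 (edgeR adjusted p = 0.0247). Its call was lost with the 6 compared libraries alone (0.156), with the 18 libraries of the 2 extracts (0.499), and without Medium dose library 1 (0.0747) or 2 (0.384) or Low dose library 2 (0.289) or 3 (0.174).

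Transport and surface genes made up other falls. SLC14A1, a urea transporter, fell by 0.49 in log2 terms (edgeR adjusted p = 0.0011; 0.0642 with the 6 compared libraries alone). STEAP4, a metalloreductase, fell by 0.39 and ACSS1, a mitochondrial acetyl-CoA synthetase, by 0.24, both with groups that did not overlap, and with the 18 libraries of the 2 extracts both calls were lost (0.0725 and 0.121). KCNE3, a potassium channel subunit of the colon, fell by 0.28 (edgeR adjusted p = 0.00257; 0.0807 without Low dose library 3). GABRP, a GABA receptor subunit, had 11.5, 12.7 and 11.6 CPM at the Medium dose and 15.1, 18.5 and 16.4 CPM at the Low dose (log2 fold change -0.48 ± 0.10, edgeR adjusted p = 0.00383; 0.119 without Low dose library 2). CHST3, a chondroitin sulfotransferase, fell by 0.54 (edgeR adjusted p = 0.00579; 0.0641 without Medium dose library 3 and 0.06 without Low dose library 2).

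**Figure D4:**
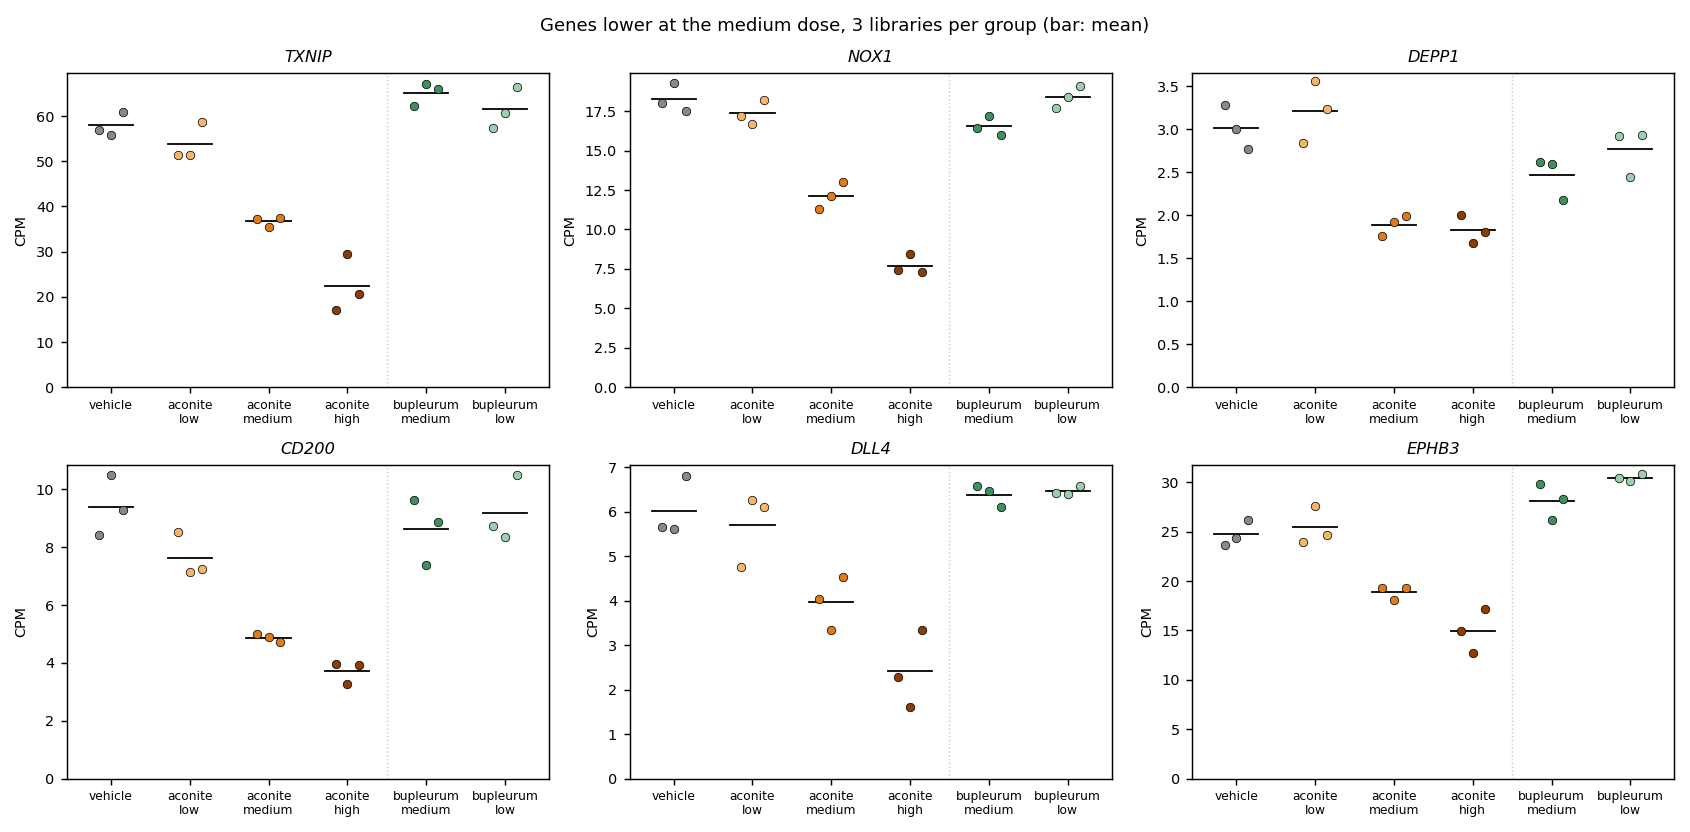
CPM of TXNIP, NOX1, DEPP1, CD200, DLL4 and EPHB3 in each library of vehicle, the Low, Medium and High doses of the aconite extract and the Medium and Low doses of the bupleurum extract, on axes that start at 0; points are libraries and bars are means of 3. For each gene the 3 libraries of the aconite Medium dose lie below the 3 of the Low dose.

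Of the 43 gene lists described by their counts, 27 held no called gene and 16 held at least 1. Over all genes tested 0.801% were called, so 0 calls in any list below say little about its members. Of 23 targets of ATF4, the factor of the integrated stress response, SLC7A11, which is also an NRF2 target, was the 1 that rose and none (0) fell. ASNS, asparagine synthetase, had 65.9, 65.3 and 65.8 CPM at the Medium dose and 59.1, 56.9 and 64.9 CPM at the Low dose, a log2 fold change of 0.12 that was not called, while the High dose had 211, 309 and 212 CPM. CHAC1, which degrades glutathione, had 4.23, 3.47 and 4.06 CPM at the Medium dose and 2.95, 2.87 and 2.91 CPM at the Low dose (edgeR adjusted p = 0.489), while the High dose had 22.6, 18 and 21.4 CPM. At the step between the Low and Medium doses these stress genes thus did not pass the test. Among 23 interferon-stimulated genes, 24 genes of cholesterol synthesis, 35 of S phase, 22 of mitosis, 52 cytosolic ribosomal proteins and 19 endoplasmic reticulum chaperones, edgeR called 0 in each list. At an unadjusted p under 0.05 there were 3, 3, 1, 0, 0 and 0 of them in that order, and DESeq2 called 0 in each. Their medians lay between -0.08 and 0.05. In the MondoA list of 7 genes, ARRDC3 rose by 0.31 (edgeR adjusted p = 0.0203; 0.283 without Medium dose library 2, 0.141 without Low dose library 2 and 0.155 without Low dose library 3) and TXNIP was the 1 fall. In the MAP kinase feedback list of 18 genes, the phosphatase DUSP5 rose by 0.43 (edgeR adjusted p = 0.0259) and DUSP6 fell by 0.21 (0.0224). The DUSP5 call was lost without any 1 of the 6 libraries, at 0.0582 to 0.193, and the DUSP6 call without Medium dose library 2 (0.187) or 3 (0.155) or Low dose library 2 (0.065) or 3 (0.362). The single calls of the hypoxia, enterocyte and drug metabolism lists were SLC2A1, CEACAM6 and UGT1A1. Aconite alkaloids are known to act on voltage-gated sodium channels. Of 27 genes of sodium channels and pumps, 12 were expressed enough to be tested, edgeR and DESeq2 called 0, and 1 was under an unadjusted p of 0.05.

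**Figure D5:**
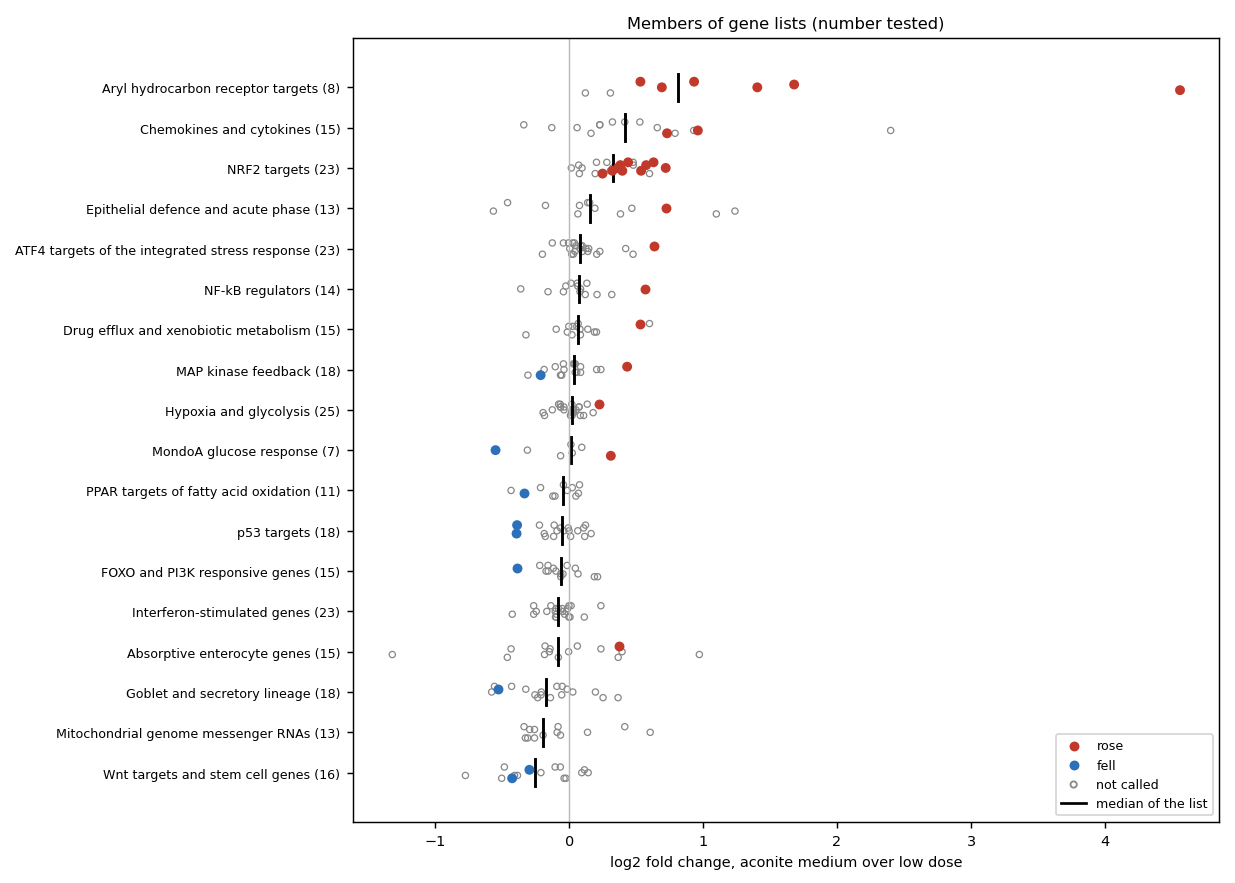
Log2 fold change, Medium over Low dose of the aconite extract, of every tested member of 18 gene lists, 1 point a gene, with called genes coloured and a bar at each list's median. The aryl hydrocarbon receptor list has a median of 0.81 and the NRF2 list 0.32, and the median over all genes is -0.002.

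The same step in dose of the bupleurum extract, from other libraries, called no gene (0, 0.00%), with 703 at an unadjusted p under 0.05 and 0 by DESeq2. The difference between the 2 extracts' effects, tested in the same fit, was called for 22 genes (0.133%; 690 at an unadjusted p under 0.05), 20 of them (0.121% of all genes) among the 75 aconite rises and 2 (0.0121%) among the 57 falls. The count was 14 without aconite Medium dose library 3 and 11 without aconite Low dose library 2. CYP1A1 led, with an aconite effect larger by 3.84 ± 0.48 (SE, edgeR adjusted p = 2.11e-06). In the bupleurum libraries it had 1.07, 0.509 and 0.907 CPM at the Medium dose and 0.564, 0.402 and 0.571 CPM at the Low dose, which overlapped, with a step of 0.72 that was not called. CYP1B1 differed by 1.34 ± 0.13, ALDH1A3 by 1.18 ± 0.10 and MT-RNR1 by 1.71 ± 0.15. CYP1B1 had 73, 68 and 68.2 CPM at the bupleurum Medium dose and 57.5, 55.1 and 52.7 CPM at its Low dose. That step was 0.34, and the ALDH1A3 step in bupleurum was 0.22, both not called. Over the aryl hydrocarbon receptor list the median bupleurum step was 0.199, against -0.003 over all genes tested, so smaller rises in bupleurum are not excluded. The aconite effect was lower by 0.63 for TXNIP (-0.55 in aconite and 0.08 in bupleurum, edgeR adjusted p = 0.0026 for the difference) and by 0.64 for RNF144B (-0.54 and 0.10, 0.0107), and neither bupleurum step was called. For the other 110 genes the difference was not called, so they are not shown to be particular to the aconite step. In the bupleurum step 48 of the 75 rises were above 0, against 48.8% of all genes tested, and 48 of the 57 falls were below 0, against 51.1%.

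The calls were set beside libraries outside the 6 compared. These took part in the same fit, so they also bear on the filter and the spread behind the calls. The counts below are therefore descriptions and no independent test. Between the aconite High dose and the bupleurum Low dose, 72 of the 75 rises were called higher (7.84% of all genes were) and 0 lower, and 52 of the 57 falls were called lower (6.27% of all genes) and 0 higher. By sign alone, 73 of the 75 rises were above 0 there (49.6% of all genes) and all 57 falls below 0 (50.3%). Against vehicle, 71 of the 75 rises were called higher at the aconite High dose (8.58% of all genes) and 54 of the 57 falls lower (7.29%). Over all settings the counts between the High dose and the bupleurum Low dose ran from 65 to 73 rises and from 51 to 54 falls, with 0 called the opposite way. Vehicle belongs to another set of libraries. The exceptions included DEPTOR, at -0.29 between the aconite High dose and the bupleurum Low dose (edgeR adjusted p = 0.108), and CABLES1 at -0.03 (0.78). By group means, 46 of the 75 rises were higher at the High than at the Medium dose and 29 were not, among them CYP1B1, ALDH1A3, ADGRF1 and LRRN4. Of the 57 falls, 48 were lower again at the High dose. The order from vehicle over the Low and Medium doses to the High dose was upward throughout for 34 of the 75 rises and downward throughout for 32 of the 57 falls. The step from Low to Medium in that order was fixed by how the genes were chosen, and the choice also bears on the neighbouring steps. No share over all genes was computed for these counts by group means, so they are descriptions and no test of a dose response.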

How the data were processed

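Messenger RNA libraries of HT29 cells were made from 1 µg of total RNA (RNA integrity number above 7) with a directional MGIEasy kit and read as pairs of 100 bp, per the labels' protocols. Per the submitters' processing notes, FastQC 0.11.9, Trim Galore 0.6.5, STAR 2.7.3a, RSEM 1.3.3 and the GRCh38 (hg38) build were used; the sources used here name neither annotation version nor strand setting. The deposited table holds the authors' expected counts (RSEM estimated counts), not normalized, for 60675 genes in 270 columns. Of these columns 60 matched the labels and 210 were not used. Of the values 8.68% were not whole, and all were rounded.

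With edgeR 4.0.16 in R 4.3.3, genes were filtered by filterByExpr, libraries scaled by TMM, and a quasi-likelihood model with 1 mean per group fitted to 57 libraries of 19 groups (38 residual degrees of freedom, 8% biological coefficient of variation). The 3 libraries of the formula with 1 library per dose were left out. CPM are TMM-scaled except for the cell type markers. A gene was called at a two-sided Benjamini-Hochberg adjusted p under 0.05 over all 16484 genes tested. DESeq2 1.42.0, other filters and scalings, other sets of libraries, a replicate block and each library left out in turn (those of the aconite High dose and vehicle added after seeing the data) were the 29 alternatives. The steps were tested on simulated data. Symbols came from a name table (56558 identifiers) and coordinates from GENCODE release 29. Members and gene lists were chosen with earlier results of these data known, so their counts are descriptions with no test of their own. Named genes were the 15 largest rises and 15 largest falls with mean log2 CPM of at least 1 and groups that did not overlap, up to 4 members of each list by p, 8 genes of the extract difference, and CYP1A1, HMOX1, NQO1, CXCL8 and TXNIP; a further gene that the rule names is not reported here, and other genes were named after their values were seen. Replicate numbers did not pair the libraries.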

Additional observations from a re-analysis of the deposited data

Results flagged for a closer look

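The effect of the dose step differed between the aconite and bupleurum extracts, by an interaction test in the same fit, for 22 genes. On the log2 scale the aconite effect minus the bupleurum effect was 3.84 for CYP1A1, 1.34 for CYP1B1, 1.18 for ALDH1A3, 0.80 for ALDH3A1 and 0.51 for TIPARP, all known targets of the aryl hydrocarbon receptor. It was 1.71 for MT-RNR1 and 0.91 for MT-RNR2, the mitochondrial ribosomal RNAs.

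Among genes of oxidant defence and aldehyde metabolism the difference was 0.60 for AKR1B10, 0.60 for OSGIN1, 0.34 for TXNRD1, 0.33 for SRXN1 and 0.33 for ALDH3A2. The SRXN1 difference stood at the threshold, with an edgeR adjusted p that rounds to 0.05. Among transporters, receptors and other enzymes it was 0.80 for SLC22A3, 0.73 for PIM1, 0.65 for ADGRF1, 0.64 for HTR1D, 0.49 for VIPR1, 0.44 for ST3GAL4 and 0.28 for SLC2A1. The 2 genes with a difference below 0 were RNF144B at -0.64 and TXNIP at -0.63. The last of the 22 was ALDH1A3-AS1 at 0.60, which lies antisense to ALDH1A3; with the strand setting not given in the sources used here, its reads cannot be told apart from those of ALDH1A3 with certainty. Both extracts were given at the same labelled doses, and no library was shared.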

How the results depend on the processing

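The 132 calls moved by more than 1.5 times in some settings. Among these were the fits without aconite Medium dose library 2 (83) and without aconite Low dose library 2 (75) or 3 (77). With the 18 libraries of the 2 extracts there were 52 (38 rises, 14 falls), and without 4 libraries that stand apart 287 (167 rises, 120 falls); leaving out 1 library gave 75 to 167 (47 to 94 rises, 28 to 73 falls). The 22 differences between extracts became 89 with no filter on low counts, 8 with the 18 libraries, 39 without the 4 libraries and 11 to 25 with 1 library left out. The bupleurum step gave 47 with no filter. The 2326 genes called between the aconite High and bupleurum Low doses became 994 with the 18 libraries and 1381 to 3645 with 1 library left out (1381 without bupleurum Low dose library 1, 3645 and 1469 without aconite High dose library 1 or 2). The NRF2 list had 7 rises with the 18 libraries, 15 in the 6 compared libraries alone and 18 without the 4 libraries; leaving out 1 of the 6 gave 7 to 10. Of the genes named in the text, the calls lost at the same direction with the 18 libraries were TPPP3 (adjusted p 0.0525), GCLM (0.0633), DEPTOR (0.0697), STEAP4 (0.0725), BIRC3 (0.0766), TXNIP (0.0903), TRIM16 (0.116), IVL (0.116), KCNE3 (0.121), ACSS1 (0.121), CHST3 (0.125), AREG (0.137), CABLES1 (0.146), NAMPT (0.155), DUSP5 (0.168), GABRP (0.23), DUSP6 (0.249), SESN1 (0.26), HMOX1 (0.26), SLC2A1 (0.272), ARRDC3 (0.293), CXCL8 (0.327), PON1 (0.355), PRDM1 (0.377), AKR1C2 (0.39) and DLL4 (0.499). The 6 compared libraries alone called 113 genes, 88 of them among the 132, and lost METTL7A (0.0505), SLC2A1 (0.0512), ARRDC3 (0.064), SLC14A1 (0.0642), DUSP5 (0.0717), DEPTOR (0.072), PON1 (0.072), HMOX1 (0.0805), IVL (0.0831), DUSP6 (0.0899), DLL4 (0.156) and PRDM1 (0.202); with a replicate block they also lost ACSS1 (0.051). SLC22A2 was not tested in these sets of libraries. No filter on low counts lost SLC22A2 (0.0732), PON1 (0.0848), IVL (0.0991), KCNE3 (0.106), HMOX1 (0.131), ARRDC3 (0.135), CABLES1 (0.158), DUSP5 (0.192), GSR (0.199), SLC2A1 (0.339), ACSS1 (0.348) and DUSP6 (0.669), and DESeq2 lost PON1 (0.0608), IVL (0.0874) and SLC22A2 (0.0989). NQO1, AKR1C1, AKR1C3, MT-ND1 and MT-CO3, not called in the 57 libraries, were called in 7, 7, 4, 3 and 1 other settings. The cause of these shifts was not tested. Of the 132 genes, 132 kept their sign with size factors in place of TMM (136 called), DESeq2 (141) and an exon-length offset (171). Replicate block fits called 142 in 57 libraries (PRDM1 lost at 0.0571) and 126 in the 6, though same-numbered libraries deviated together at r of only -0.02, -0.01 and 0.00. Of 82 called genes picked for naming, not all of which appear in this text, 40 were called under every alternative. Depth limits genes near 1 CPM, such as PON1, IVL, SLC22A2 and FGD2.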

Other observations

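Some of the genes that rose were lower again at the High dose than at the Medium dose, and those named here were picked after their values were seen. CYP1B1 averaged 399 CPM, ADGRF1 84.8 CPM, HTR1D 14.8 CPM, CABLES1 94.4 CPM and ALDH1A3 103 CPM at the Medium dose, and each of these had its 3 High dose libraries below all 3 Medium dose libraries. HTR1D had 11.9, 10.9 and 12.1 CPM at the High dose, against 8.19, 9.27 and 7.93 CPM in vehicle cells. CXCL1, CXCL8, SLC7A11, AKR1B10 and HMOX1 had every High dose library above every Medium dose library. The difference between the High and Medium doses was not tested.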
